A study of Homo sapiens with 2 samples.

Results

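The 30 genes described here act at the G1/S transition or in DNA replication, and they were chosen by symbol from a deposited table of 56558 gene symbols. RNA had been sequenced from Huh7, an established line of human liver cancer cells, used at passages 5 to 8. There was 1 library of cells labelled as NEIL3 knockdown and 1 library of shGFP control cells, a name commonly given to cells that carry a hairpin against green fluorescent protein, which human cells lack. NEIL3 is a DNA glycosylase that removes damaged bases, and the series title ties it to DNA repair and to the epithelial-mesenchymal transition. The sources used here do not give how NEIL3 was knocked down or whether the cells were a clone or a pool. Of the 30 genes, 29 had a level of 1 FPKM or more in both libraries, and the remaining gene, E2F2, is listed at the floor of the table in both. FPKM counts fragments per kilobase of transcript, scaled for the size of the library, so levels can be compared between genes.

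Cells license each replication origin once per cycle. In G1 the origin recognition complex, CDC6 and CDT1 load the ring of MCM2 to MCM7 onto DNA, and at the start of S phase CDC45 and the GINS complex join the ring to form the moving helicase. DNA polymerase alpha with primase then starts each strand, replication factor C loads the sliding clamp PCNA, and polymerases epsilon and delta extend. Most of these genes are known targets of E2F transcription factors, which are released from the retinoblastoma protein as cells enter S phase.

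The promoters of 4 members are shown because these genes lie on opposite sides of 0 within the same step of licensing: CDT1 had the lowest and CDC6 the highest ratio of knockdown to control of all members, and MCM3 had the lowest and MCM6 the highest ratio of the ring subunits. Each is 300 bases long, from 250 bases before the RefSeq start of transcription to 50 bases from it, on build GRCh38.p14, and is read 5′ to 3′ on the strand of the gene. Capitals mark matches to TTTNNCGC, an E2F-type motif in which N is any base, or to its other strand GCGNNAAA. The windows are chr16:88803539-88803838 (plus strand) for CDT1, chr17:40287629-40287928 (plus strand) for CDC6, chr6:52284693-52284992 (minus strand) for MCM3 and chr2:135876394-135876693 (minus strand) for MCM6. That of CDT1 lies inside the longer CDT1 gene of the deposited table. The CDC6 window lies almost wholly inside its gene there, and the MCM3 window in large part.
CDT1: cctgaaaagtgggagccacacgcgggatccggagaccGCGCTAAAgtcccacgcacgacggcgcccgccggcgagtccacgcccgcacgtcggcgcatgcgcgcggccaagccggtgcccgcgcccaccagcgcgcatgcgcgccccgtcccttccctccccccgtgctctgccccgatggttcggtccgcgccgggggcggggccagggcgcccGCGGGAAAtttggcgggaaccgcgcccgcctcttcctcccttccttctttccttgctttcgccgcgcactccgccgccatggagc
CDC6: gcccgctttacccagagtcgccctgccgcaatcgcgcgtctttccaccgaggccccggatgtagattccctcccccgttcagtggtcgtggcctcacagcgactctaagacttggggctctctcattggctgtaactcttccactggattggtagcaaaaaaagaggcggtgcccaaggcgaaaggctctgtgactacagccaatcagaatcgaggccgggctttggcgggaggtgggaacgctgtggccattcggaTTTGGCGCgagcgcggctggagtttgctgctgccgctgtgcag
MCM3: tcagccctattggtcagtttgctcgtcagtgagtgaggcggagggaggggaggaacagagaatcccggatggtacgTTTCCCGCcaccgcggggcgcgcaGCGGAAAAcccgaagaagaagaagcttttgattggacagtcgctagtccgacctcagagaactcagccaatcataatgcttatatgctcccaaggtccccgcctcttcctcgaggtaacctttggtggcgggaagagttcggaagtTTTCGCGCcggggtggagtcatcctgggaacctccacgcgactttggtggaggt
MCM6: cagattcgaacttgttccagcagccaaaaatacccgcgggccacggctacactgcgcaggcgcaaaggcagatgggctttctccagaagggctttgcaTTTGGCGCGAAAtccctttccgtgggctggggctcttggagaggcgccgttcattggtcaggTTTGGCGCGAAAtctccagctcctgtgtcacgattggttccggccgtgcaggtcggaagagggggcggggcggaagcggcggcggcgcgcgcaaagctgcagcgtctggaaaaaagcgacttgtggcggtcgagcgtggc

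CDT1 held 2 matches, which began 213 and 35 bases before the start. CDC6 held 1, from base 8 after the start, and MCM3 held 3. In MCM6 the 4 matches overlapped in pairs and formed the same 12 bases at 2 places, TTTGGCGCGAAA, which reads as a match on both strands. Promoter windows were found for 27 members, and those of MCM4, MCM5 and GINS4 were not used here. Of the 27 genes, 19 (70.4%) held the E2F-type motif in at least 1 window, against 35.8% of 67 further replication genes with a window, 13.0% of the 9505 analysed symbols with one and 8.23% of all 27305 genes with one. The CCAAT box, a 5-letter motif searched on both strands, was held by 16 members (59.3%), against 55.2% of the further replication genes and 43.3% of the analysed symbols. In 1 of the 35 member windows a CCAAT match overlapped an E2F-type match. A match describes letters and does not show that a factor binds. Stretches that differ from the motif at 1 fixed letter, such as tttggcgg in the CDC6 and CDT1 windows, were not counted.

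NEIL3 itself was at 2.84 FPKM in the knockdown library and 5.34 FPKM in the control library, so 53.2% of the control level remained. All 10 hepatocyte markers examined reached 1 FPKM in both libraries, and they summed to 2537 FPKM in the knockdown and 2198 FPKM in the control library. ALB (albumin), the most abundant, was at 1272 FPKM in the knockdown and 1346 FPKM in the control library, while the other 9 were higher in the knockdown, among them AFP at 59.8 FPKM in the knockdown and 12.3 FPKM in the control library. Of the markers of other cell types, 6 of 8 fibroblast, 1 of 6 endothelial and 1 of 6 leukocyte genes reached 1 FPKM in each library, and 0 were at the floor. Their summed levels were 41.1 FPKM in the knockdown against 41.5 FPKM in the control library for fibroblasts, 4.94 against 4.09 FPKM for endothelium, and 6.22 against 3.67 FPKM for leukocytes. The leukocyte sum rests on CD14, at 5.33 FPKM in the knockdown and 2.57 FPKM in the control library, and the remaining 5 genes summed to 0.893 FPKM in the knockdown and 1.10 FPKM in the control library. Mitochondrial transcripts took 26.3% of all FPKM in the knockdown and 23.1% in the control library. The part of the cell type markers in the results below was not tested. Depth in fragments is not given. Among 6118 genes under 0.3 FPKM, knockdown over control ratios clustered at 1.29 (662 genes within 2%). If levels were scaled to mapped fragments, 1 fragment in each library gives this ratio at a knockdown depth of 77.5% of the control depth. With 1 library per group there is no replicate error and no test, and "higher" and "lower" compare these 2 libraries only.

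Taken as a sum, the replication genes stood at almost the same level in both libraries. Their summed level was 1215 FPKM in the knockdown and 1193 FPKM in the control library. PCNA alone gave 225 FPKM of this sum in the knockdown and 203 FPKM in the control library. A log2 ratio was taken for each gene as log2((knockdown + 1)/(control + 1)), with 1 FPKM added to each level. The median over the 29 measured members was 0.04, with 16 above 0 and 13 below. The median was 0.02 over all 14209 symbols at 1 FPKM or more, and 0.04 over the 8010 symbols within the members' range of mean levels. Rescaled without mitochondrial transcripts, the median was 0.10 over the members and 0.07 over all symbols. On this scale 1 member, CDC6, was at least 1.3-fold higher in the knockdown library, where 10.5% of all symbols were. Likewise 1 member, CDT1, was at least 1.3-fold lower, where 9.66% of all symbols were. The 2 members past 1.3-fold make 6.90% of those measured, against 20.2% of all symbols and 14.4% of those 8010 symbols. At 1.5-fold the member count was 0, against 9.04% of all symbols. All symbols include genes of lower level, and no share at 1.5-fold was taken for the 8010 symbols. Levels within 20% of each other, by the plain ratio, were found for 20 members (69.0%), against 70.8% of symbols in that abundance range. The members' share within 20% was thus close to that of other genes of their abundance.

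**Figure D1:**
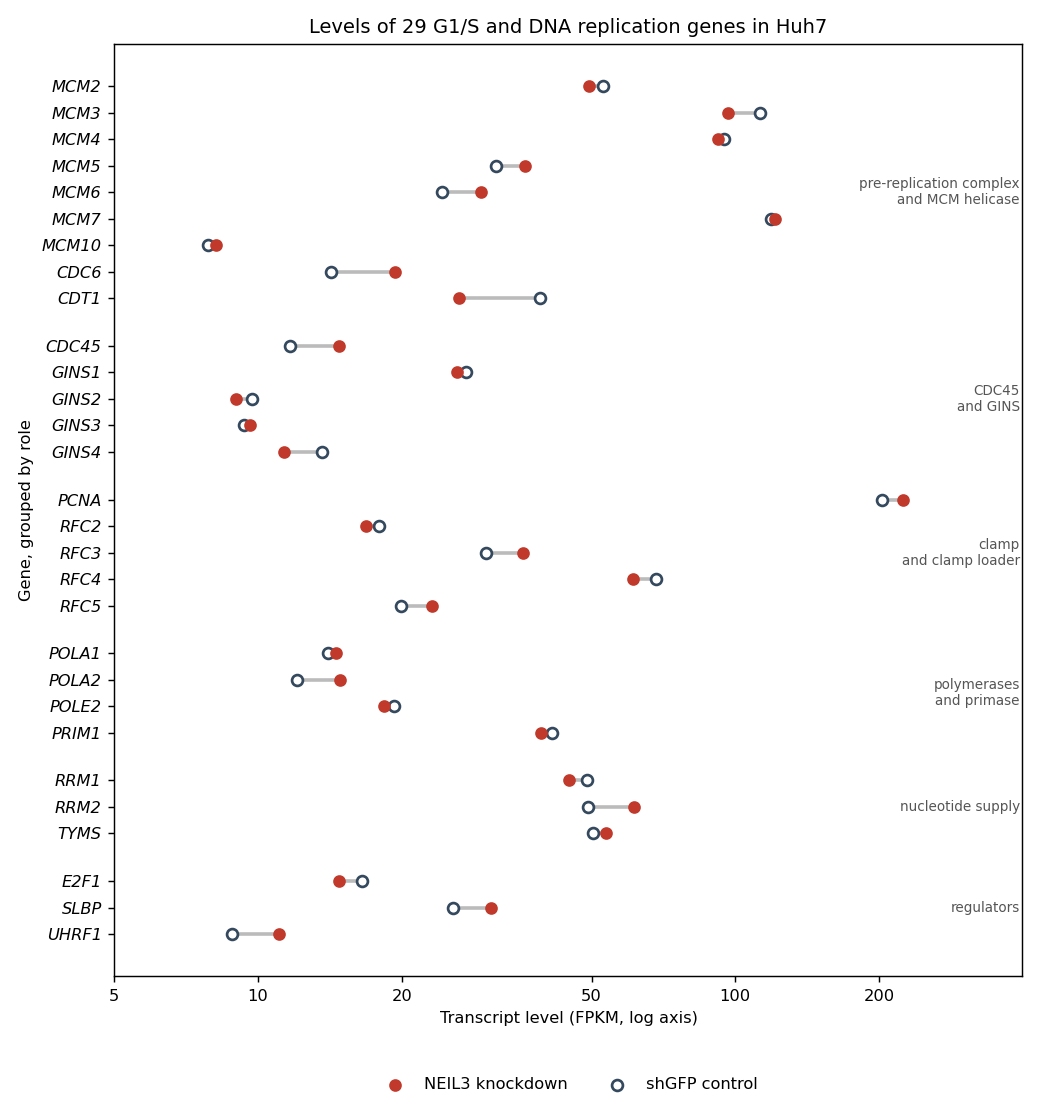
Level of each of the 29 measured genes in FPKM on a log axis, with filled points for the NEIL3 knockdown library and open points for the shGFP control library, grouped by role. The widest gaps are CDT1, at 26.4 FPKM in the knockdown and 39.1 FPKM in the control library, and CDC6, at 19.3 and 14.2 FPKM in the same order.

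The order of the genes by level was also nearly kept. PCNA was the most abundant member, at 225 FPKM in the knockdown and 203 FPKM in the control library. MCM7, MCM3 and MCM4 followed in that order in both libraries. MCM10, a scaffold that helps the helicase start to unwind DNA, was the least abundant measured member, at 8.16 FPKM in the knockdown and 7.87 FPKM in the control library. PCNA was thus 27.6-fold above MCM10 in the knockdown and 25.8-fold above it in the control library. Across the 29 genes, which share their 2 libraries, Spearman's rho between the libraries was 0.976. CDT1 changed place the most, ranking 15 in the knockdown and 11 in the control library. CDC6, CDC45, POLA2 and RRM2 each stood 3 places higher in the knockdown than in the control ranking.

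**Figure D2:**
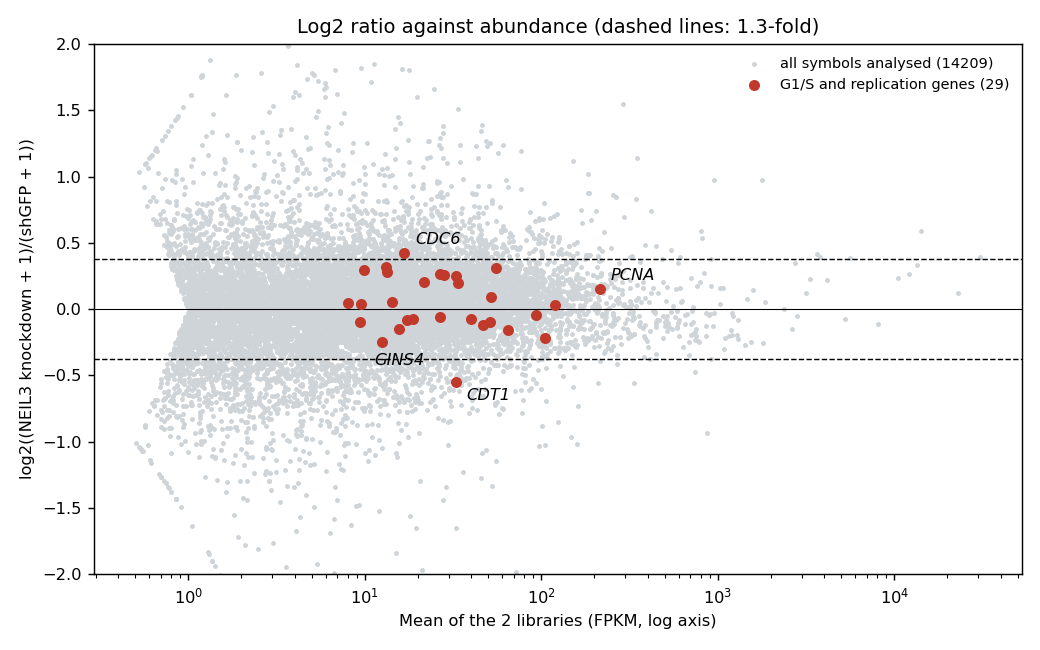
Log2 ratio of each gene, NEIL3 knockdown over shGFP control with 1 FPKM added, against the mean level of the 2 libraries on a log axis. Red points are the 29 replication genes and grey points all 14209 analysed symbols, of which 58 lie beyond the plotted range of 2; only CDC6 and CDT1 among the red points pass the dashed lines at 1.3-fold.

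The 2 factors that bring the MCM ring to origins differed in opposite directions. CDT1 (ENSG00000167513, chromosome 16, 88803213 to 88809258, plus strand, GRCh38) stood at 26.4 FPKM in the knockdown and 39.1 FPKM in the control library, a ratio of 0.675 and a log2 ratio of -0.55. Of all analysed symbols, 5.02% had a lower log2 ratio. A smaller share was lower among the 8010 symbols within the members' range of mean levels. Log2 ratios spread less over those 8010, with a standard deviation of 0.36 against 0.43 over all analysed symbols. CDC6 (ENSG00000094804, chromosome 17, 40287633 to 40304657, plus strand) stood at 19.3 FPKM in the knockdown and 14.2 FPKM in the control library, a ratio of 1.36 and a log2 ratio of 0.42. Here 91.3% of all analysed symbols had a lower log2 ratio, and this share was not taken over the 8010 symbols. With 5 FPKM added in place of 1, CDC6 no longer passed 1.3-fold. CDT1 transcripts per CDC6 transcript, compared per length, were therefore 1.36 in the knockdown and 2.75 in the control library. This quotient joins the members with the lowest and the highest ratio, so a wide gap between libraries follows from that choice. In bulk RNA, fewer cells that express a gene and less RNA per cell cannot be told apart. Neither gene overlaps another gene of the table. In the authors' deposited table, which compares the same 2 libraries, CDT1 had the lowest p-value of the members, at 0.302, and 0 of 29 members had a q-value under 0.05, while 13 genes of the whole table were marked significant. With 1 library per group these values hold no replicate error, and they do not show that levels were equal.

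The genes next to CDT1 lay on both sides of 0. Within 100 kb, 6 protein-coding genes reached 5 FPKM, and their log2 ratios ran from -0.31 to 0.33 with a median of 0.06. The nearest, APRT, a purine salvage enzyme, stood at 55.1 FPKM in the knockdown and 43.5 FPKM in the control library. Around CDC6 there were 3 such genes, with log2 ratios from -0.23 to -0.07. The lowest of them was TOP2A, the topoisomerase that untangles replicated DNA, at 79.9 FPKM in the knockdown and 94.1 FPKM in the control library.

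The 6 subunits of the MCM ring summed to 425 FPKM in the knockdown and 435 FPKM in the control library, with 3 subunits higher and 3 lower in the knockdown. MCM3 was at 96.7 FPKM in the knockdown and 113 FPKM in the control library, the lowest ratio of the ring at 0.857. MCM2 was at 49.3 FPKM in the knockdown and 52.8 FPKM in the control library. These 2 subunits and MCM4 (92.1 FPKM in the knockdown, 94.9 FPKM in the control library) were lower in the knockdown. MCM6 was at 29.3 FPKM in the knockdown and 24.3 FPKM in the control library, the highest ratio of the ring at 1.21. MCM5 was at 36.2 FPKM in the knockdown and 31.5 FPKM in the control library, and MCM7 at 121 FPKM in the knockdown and 119 FPKM in the control library. The least abundant subunits, MCM5 and MCM6, were thus higher in the knockdown library. MCM7, the most abundant, exceeded MCM6 by 4.13-fold in the knockdown and by 4.89-fold in the control library. The sum and MCM4 turned to the other side of 0 when both libraries were rescaled without mitochondrial transcripts, at log2 ratios of 0.03 and 0.02.

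CDC45 and the GINS complex, which turn the loaded ring into an active helicase, gave mixed values. CDC45 was at 14.8 FPKM in the knockdown and 11.7 FPKM in the control library, a log2 ratio of 0.32. GINS4 had the lowest ratio of the GINS subunits, at 11.3 FPKM in the knockdown and 13.6 FPKM in the control library, a log2 ratio of -0.25. The other GINS genes were closer. GINS1 was at 26.1 FPKM in the knockdown and 27.3 FPKM in the control library, GINS2 at 8.99 and 9.71 FPKM in the same order, and GINS3 at 9.60 FPKM in the knockdown and 9.32 FPKM in the control library. GINS1 made up 46.6% of the summed GINS level in the knockdown and 45.6% in the control library.

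**Figure D3:**
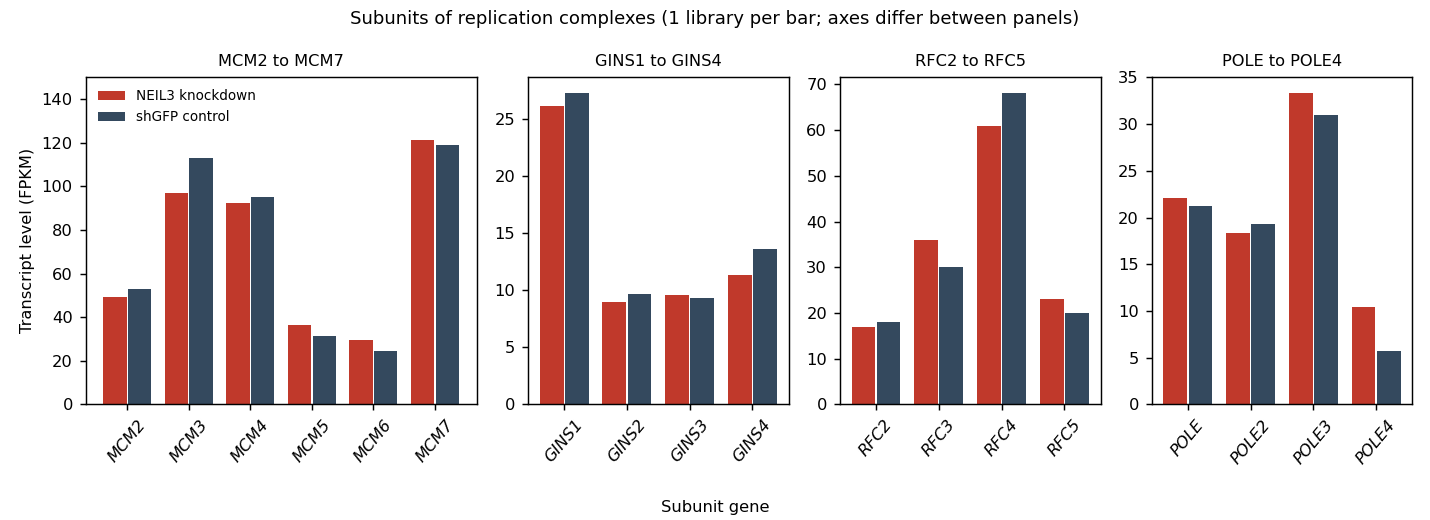
Level in FPKM of each subunit gene of the MCM ring, the GINS complex, the small RFC subunits and DNA polymerase epsilon, with the NEIL3 knockdown library left of the shGFP control library. The order of subunits within each complex is nearly the same in both libraries, and POLE4, at 10.4 FPKM in the knockdown and 5.74 FPKM in the control library, has the largest fold between its bars.

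The small subunits of the clamp loader were close in sum. PCNA, the ring that holds polymerases on DNA, had a log2 ratio of 0.15. RFC2 to RFC5, the small subunits of the clamp loader, summed to 137 FPKM in the knockdown and 136 FPKM in the control library. RFC3 was at 35.9 FPKM in the knockdown and 30.01 FPKM in the control library, and RFC5 at 23.1 FPKM in the knockdown and 19.96 FPKM in the control library. RFC4 was at 61.0 FPKM in the knockdown and 68.2 FPKM in the control library, and RFC2 at 16.9 FPKM in the knockdown and 17.96 FPKM in the control library. So 2 of the 4 were higher and 2 lower, and RFC4 remained the most abundant of them in both libraries. RFC1, a further subunit of the loader that is not among the members, was at 43.3 FPKM in the knockdown and 51.8 FPKM in the control library. Its log2 ratio was -0.25.

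Of the 4 listed polymerase and primase genes, POLA2 differed most. POLA2, the regulatory subunit of polymerase alpha, was at 14.8 FPKM in the knockdown and 12.05 FPKM in the control library, a log2 ratio of 0.28. POLA1, its catalytic subunit, was at 14.5 FPKM in the knockdown and 14.01 FPKM in the control library. PRIM1, the catalytic primase subunit that works in the same complex, was at 39.1 FPKM in the knockdown and 41.3 FPKM in the control library. POLE2, a subunit of the leading strand polymerase epsilon, was at 18.3 FPKM in the knockdown and 19.3 FPKM in the control library.

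Among the genes of nucleotide supply, the subunits of ribonucleotide reductase, the enzyme that makes deoxynucleotides, lay on opposite sides of 0. RRM2, the small subunit whose level limits the enzyme in S phase, was at 61.3 FPKM in the knockdown and 49.1 FPKM in the control library, a log2 ratio of 0.31. RRM1, the large subunit, was at 44.8 FPKM in the knockdown and 48.9 FPKM in the control library. RRM2 per RRM1 was 1.37 in the knockdown and 1.01 in the control library. TYMS, which makes thymidylate, was at 53.7 FPKM in the knockdown and 50.5 FPKM in the control library.

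The regulators on the list include the factors that switch this programme on. E2F1 was at 14.8 FPKM in the knockdown and 16.5 FPKM in the control library, a log2 ratio of -0.15. E2F2 is listed at the floor of 1e-05 FPKM in both libraries, so it has no ratio; whether this reflects absence or an estimate that failed is unknown. SLBP, which binds the stem-loop of histone messages and is needed for histone supply in S phase, was at 30.8 FPKM in the knockdown and 25.6 FPKM in the control library. UHRF1, which directs the maintenance methylase to newly replicated DNA, was at 11.1 FPKM in the knockdown and 8.81 FPKM in the control library, a log2 ratio of 0.30. Neither SLBP nor UHRF1 passed 1.3-fold on the log2(FPKM + 1) scale.

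Members with and without the E2F-type motif lay on both sides of 0. The 18 measured members that hold it had a median log2 ratio of 0.04 and ran from -0.55 to 0.42, since both CDT1 and CDC6 are among them. The 8 measured members without it had a median of -0.02 and ran from -0.16 to 0.32. Among all analysed symbols the medians were 0.03 with the motif and 0.03 without it.

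Genes that overlap or have near-identical copies are harder to count, and how far this touched the values was not measured. Of the 30 members, 9 overlap a gene that reached 1 FPKM. For RFC3, POLA1 and PRIM1 such a gene lies on the same strand, which for PRIM1 is NACA. Pseudogenes named after a member are listed for 5 members, among them PCNA, RRM2 and TYMS, and 0 of these 5 had a pseudogene at 1 FPKM, the highest being at 0.259 FPKM.

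A wider list of 82 further replication genes, written from general knowledge of the pathway, was also close between the libraries. All 82 reached 1 FPKM in at least 1 library, and their median log2 ratio was 0.04, with 46 above 0 and 36 below. At least 1.3-fold higher in the knockdown library were 5 of the 82, where 10.5% of all symbols were. At least 1.3-fold lower were 2, where 9.66% of all symbols were. Together they make 8.54% of the 82, against 20.2% of all symbols. All symbols include genes of lower level, and no share was taken over symbols matched to the levels of these 82. How far their level accounts for the smaller share was not tested. Rescaled without mitochondrial transcripts, the counts of these further genes past 1.3-fold were 7 higher and 0 lower. With 5 FPKM added they were 2 and 0, and with no pseudocount 5 and 3. The counts of the 30 members after rescaling were 2 higher and 1 lower. No share of all symbols was taken at these settings, and rescaling raised the median over all symbols from 0.02 to 0.07. Origin recognition and licensing genes ran from -0.08 for ORC3, an origin recognition subunit, to 0.32 for MCM9, a relative of the ring subunits that acts in repair. Origin firing genes ran from -0.24 for MTBP, a partner of the firing factor TICRR, to 0.23 for DONSON, which helps to place GINS on the ring.

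POLE4, a small histone-fold subunit of polymerase epsilon, differed most and was the only gene of the 82 at least 1.5-fold higher on the log2(FPKM + 1) scale. It stood at 10.4 FPKM in the knockdown and 5.74 FPKM in the control library, a ratio of 1.81. The other subunits of that polymerase were closer between the libraries. POLE, its catalytic subunit, was at 22.1 FPKM in the knockdown and 21.2 FPKM in the control library, and POLE3, the partner of POLE4, at 33.4 FPKM in the knockdown and 30.9 FPKM in the control library. CCNE2, a cyclin that drives entry into S phase, was named after its values were seen; it stood at 4.56 FPKM in the knockdown and 2.80 FPKM in the control library. Its relative CCNE1 was at 4.08 FPKM in the knockdown and 5.13 FPKM in the control library.

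TOP1, the topoisomerase that relaxes DNA ahead of the fork, was at 70.8 FPKM in the knockdown and 50.1 FPKM in the control library. RNASEH2C, a subunit of the enzyme that removes ribonucleotides from DNA, was at 13.98 FPKM in the knockdown and 10.06 FPKM in the control library. POLD4, the smallest subunit of polymerase delta, was at 50.4 FPKM in the knockdown and 38.02 FPKM in the control library. These 3 genes, POLE4 and CCNE2 are the 5 that were higher. The 2 that were lower were TFDP2, a dimer partner of E2F proteins, at 7.96 FPKM in the knockdown and 10.99 FPKM in the control library, and SKP2, at 30.5 FPKM in the knockdown and 40.7 FPKM in the control library. CLSPN, or claspin, which links the fork to checkpoint signalling, was the additional lower gene with no pseudocount, at 7.94 FPKM in the knockdown and 10.6 FPKM in the control library.

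SKP2 belongs to one of the ubiquitin ligases known to mark CDT1 for destruction. Another such ligase is built from CUL4A or CUL4B, DDB1 and DTL. DTL, its substrate receptor for CDT1, was at 15.6 FPKM in the knockdown and 17.6 FPKM in the control library, and the adaptor DDB1 at 140.3 FPKM in the knockdown and 160.1 FPKM in the control library. The scaffolds were higher in the knockdown, with CUL4A at 70.1 FPKM in the knockdown and 58.5 FPKM in the control library, and CUL4B at 40.5 FPKM in the knockdown and 38.5 FPKM in the control library. GMNN, or geminin, which binds and blocks CDT1 protein, was at 43.5 FPKM in the knockdown and 38.2 FPKM in the control library. Geminin transcripts per CDT1 transcript were 1.65 in the knockdown and 0.978 in the control library. CDT1 enters this value as the member with the lowest ratio. These are transcript levels, and CDT1 protein was not measured.

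**Figure D4:**
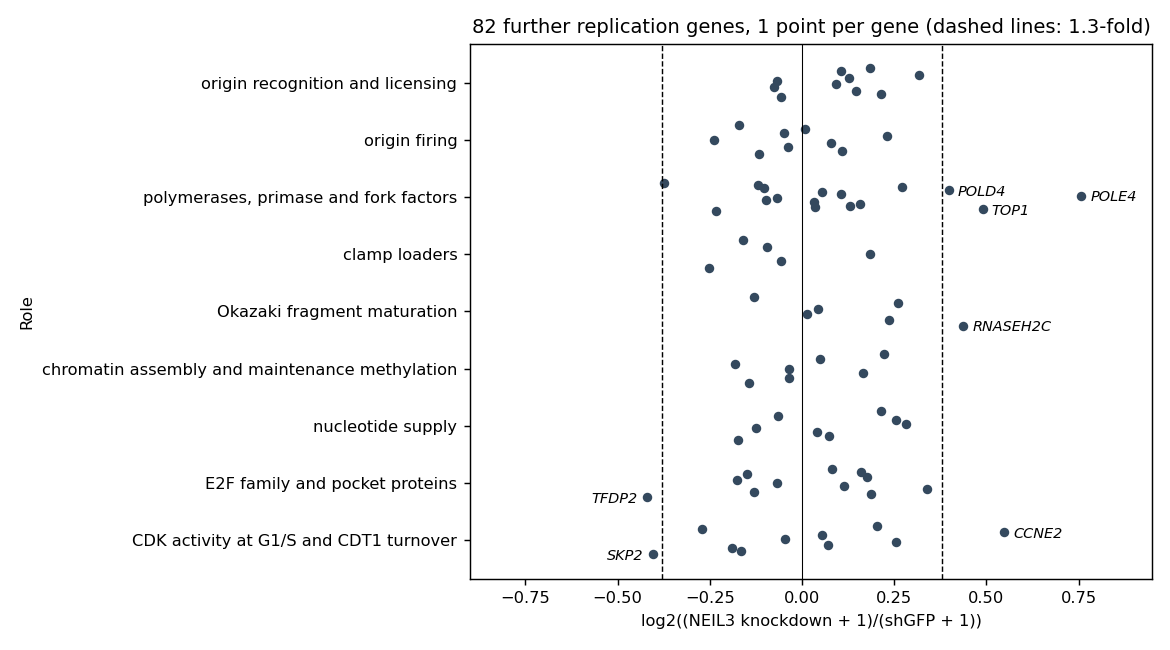
Log2 ratio, NEIL3 knockdown over shGFP control with 1 FPKM added, of 82 further replication genes by role, with 1 point per gene and dashed lines at 1.3-fold. Most points lie between the lines; POLE4 lies farthest out at 0.76 and TFDP2 is the lowest at -0.42.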

How the data were processed

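Per the labels' protocols, total RNA was extracted with Trizol and made into libraries with a strand-specific kit. The submitters' processing notes name Cufflinks 2.2.1, Cuffdiff, HISAT2 2.1.0, Trimmomatic 0.36, SAMtools 1.2, bcl2fastq and build GRCh38.p10, while the annotation release, filters and strand setting are not stated in the sources used. The authors deposited FPKM values, a ratio column and its log2, and, per the file headers, p-values and q-values comparing the libraries. A count test would not suit FPKM, and none was run. Undetected genes appear to be listed at 1e-05 FPKM, judging from how often that value recurs.

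For the 213 symbols on several rows, the row with the highest mean FPKM was kept. Symbols with 1 FPKM or more in at least 1 library were analysed. Ratios are knockdown over control; log2 ratios use a pseudocount of 1 FPKM and so understate the fold of genes of low level. With 1 library per group no test was possible. The members, the lists, the 1.3-fold limit and the promoters shown were chosen with earlier results of these data known. All 30 members are named. Of the further genes at a mean of 5 FPKM or more, the rule took those past 1.5-fold and the 6 largest log2 ratios by absolute size. Partner genes, subunits of the same complex, neighbours and group extremes were named besides. Promoter sequences are from RefSeq on GRCh38.p14, matched by symbol; gene positions come from the authors' table. The code for the fold counts was checked on simulated levels without noise, made from genes of higher control level. That for the E2F-type motif was checked on made sequences. These checks cover the code and not the noise of the data. Python 3.11.15 and pandas 2.3.3 were used.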

Additional observations from a re-analysis of the deposited data

How the results depend on the processing

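The counts, the medians of members and of all symbols, NEIL3 and 35 single genes (29 members and 6 further genes) were recomputed with a pseudocount of 0.1, 5 or 0 FPKM, centred on the median of all symbols, rescaled without mitochondrially encoded genes, with no FPKM minimum or a minimum of 5, with rows of a symbol summed, and, for counts, with folds of 1.5 and 2. The sums of MCM, GINS and RFC genes were recomputed under the settings that alter FPKM, the minimum or the rows; other values were not recomputed. After rescaling, the log2 ratio of the GINS sum was -0.04 (-0.10 as reported) and that of the RFC sum 0.07 (0.01). The median over all symbols, 0.02 as reported, was 0.04 with a minimum of 5 FPKM, 0 with no minimum and 0.07 after rescaling, and that over the members, 0.04 as reported, was 0.10 after rescaling. Of 280 values of single genes, 277 moved by less than 0.1 on the log2 scale. The 3 that moved more did so with a pseudocount of 5 FPKM: POLE4 (0.52), RNASEH2C (0.33) and TFDP2 (-0.30). Many of the 280 could not move by that much. Changing the minimum or summing rows left every single-gene value as it was. Centring shifted all genes by the same small amount, and rescaling shifted them all by a similar one. The log2 ratio of NEIL3, -0.72 as reported, was -0.89 with a pseudocount of 0.1, -0.40 with 5 and -0.91 with none. Members higher and lower numbered 1 and 1 as reported, 0 and 1 with a pseudocount of 5, 2 and 1 after rescaling, where CDC45 joined CDC6, and 0 and 0 at folds of 1.5 and of 2. The further replication genes numbered 5 higher and 2 lower as reported, 5 and 3 with a pseudocount of 0.1, with none and after centring, where CLSPN joined the lower genes, 2 and 0 with a pseudocount of 5, 7 and 0 after rescaling, where MCM9 and RBL1 joined the higher genes, 1 and 0 at a fold of 1.5, and 0 and 0 at a fold of 2. A larger pseudocount or fold makes these counts smaller by construction. The cause of the change after rescaling was not tested. Apart from the 1.5-fold limit, no share of all symbols was taken at the changed settings. No paired analysis was possible because each group has 1 library. For the same reason no replicate could be left out, and differences of the size seen here could not be set against replicate error. Depth in fragments is unknown, so no counting interval is given.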
